A study of Mus musculus with 4 samples.

Results

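The genes of the proteasome were examined in the hippocampus of mice on day 1 after a tibial fracture. A gene was taken as a member when it is protein coding and its symbol starts with Psm, a letter from a to g and a digit. This rule uses no measured value, and it found 50 genes among the 29300 genes of the deposited count table. They comprise 8 genes of the Psma family and 11 of the Psmb family (the 20S core), 6 of the Psmc family and 14 of the Psmd family (the 19S cap), 5 Psme genes (the activators), the inhibitor Psmf1 and 4 Psmg genes (assembly chaperones). The rule also takes in Psmc3ip, which encodes a partner of meiotic recombination and is no proteasome gene by role. Both groups held 2 male wild-type mice of the C57BL/6 strain, 7 to 8 months old. Control mice (sham) received isoflurane anesthesia and tramadol, and surgery mice received the same and then an open tibial shaft fracture with intramedullary nailing. The comparison therefore concerns the fracture and its repair on top of anesthesia and analgesia, and mice that had neither are not among these samples.

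The proteasome is the barrel-shaped protease that degrades most short-lived and damaged proteins of the cell after they have been tagged with ubiquitin. Its 20S core is built of stacked rings of alpha and beta subunits, and the protease sites sit inside on the beta subunits Psmb5, Psmb6 and Psmb7. The 19S cap binds ubiquitin chains, removes them and unfolds the substrate with a ring of ATPases, while alternative caps of the Psme family open the core without using ATP. Under interferon, Psmb8, Psmb9 and Psmb10 replace the 3 constitutive catalytic subunits to give the immunoproteasome. In neurons the proteasome is known for shaping synaptic protein content, and it takes part in memory formation in the hippocampus.

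Library totals ran from 15763432 to 18573386 counts, and the filter on low counts kept 17144 genes. Read counts were scaled to CPM, the counts of a gene per 1000000 counts of its library, with TMM factors of 0.982 to 1.02, and surgery and control mice were compared with edgeR's quasi-likelihood F test, whose p-values were adjusted over all 17144 genes. An adjusted p under 0.05 is called lower or higher here, and a fold of at least 1.5 or at most 0.67 is stated separately. The replicates of each group are separate mice, and the median gene had a standard deviation of 0.10 on the log2 scale between the 2 mice of either group. The log2 fold change of all genes ran with the GC content of their transcripts, which is taken up with the proteasome genes below, and control mouse 1 stood apart in choroid plexus transcripts, whose 5 marker genes summed to 127 CPM in this mouse against 5399 CPM in control mouse 2, 2031 CPM in surgery mouse 1 and 3440 CPM in surgery mouse 2. In bulk tissue, fewer cells of a type and less RNA per cell cannot be told apart.

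The promoters of 3 genes are shown as examples. Without offsets for transcript length and GC content, treated below, Psmb5 had the largest fall among the proteasome genes. Psmb6 encodes another of the catalytic subunits and was also lower, and Psmc6 was higher. Psmb4, Psmd3, Psmd4 and Psmd8 had larger falls than Psmb6, and Psme4 had a larger rise than Psmc6. Each sequence comes from the 250 bases before the transcription start in RefSeq, cut where an annotated transcript of the gene begins, and is read in the direction of transcription on build GRCm38.p6. Capitals mark matches, on either strand, to the core of the antioxidant response element (ARE, TGACNNNGC), which Nfe2l1 and Nfe2l2 are known to bind, and to the GC box (GGGCGG).
Psmb5, chr14:54618023-54618245, minus strand: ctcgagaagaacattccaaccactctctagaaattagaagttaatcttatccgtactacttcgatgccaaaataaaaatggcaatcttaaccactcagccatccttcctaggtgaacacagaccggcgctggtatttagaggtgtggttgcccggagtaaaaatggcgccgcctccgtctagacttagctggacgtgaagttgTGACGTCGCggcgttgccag
Psmb6, chr11:70525107-70525356, plus strand: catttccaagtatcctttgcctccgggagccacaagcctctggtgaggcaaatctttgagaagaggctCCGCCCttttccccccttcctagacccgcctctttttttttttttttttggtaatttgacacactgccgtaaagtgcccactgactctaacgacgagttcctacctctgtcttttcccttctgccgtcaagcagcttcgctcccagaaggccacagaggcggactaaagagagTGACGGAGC
Psmc6, chr14:45329574-45329787, plus strand: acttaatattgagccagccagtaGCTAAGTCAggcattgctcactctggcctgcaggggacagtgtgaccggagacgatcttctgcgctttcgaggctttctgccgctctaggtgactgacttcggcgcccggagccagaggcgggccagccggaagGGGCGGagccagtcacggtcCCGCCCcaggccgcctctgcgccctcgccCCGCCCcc

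An ARE core was thus present in the windows of Psmb5, Psmb6 and Psmc6, of which the first pair was lower and the last higher in the surgery mice, a contrast that was lost with offsets for transcript length and GC content, where all 3 had negative log2 fold changes (-0.56, -0.20 and -0.50). The Psmb5 match starts at -47 relative to the transcription start and the Psmc6 match, on the opposite strand, lies at -227 relative to it. RefSeq windows were matched for 42 of the 50 genes, 45 windows in all. The ARE core was found in 11.1% of the 45 windows and in 10.2% of all 32851 promoter windows of the same length, so the proteasome windows held it about as often as any other. The genes with a match were Psmb5, Psmb6, Psmc6, Psmd9 and Psmd12, so all 3 genes shown are among these 5. Of the genes with a window, 2 of the 11 lower and 1 of the 3 higher had a match. The palindrome that the factor Nrf1 is known to bind (GCGC, any base, then TGCGC, both strands) was in 13.3% of the proteasome windows and 3.74% of all windows, in the genes Psma2, Psma3, Psma4, Psmc4, Psmc5 and Psmd14. Of these 6 genes, Psmc5 was lower in the surgery mice and the others did not pass the test, where 12.8% of all tested genes were lower. With the offsets Psmc5 no longer passed the test and Psma2 was lower (edgeR with offsets, adjusted p = 0.087 and 0.0496). GC boxes were in 51.1% against 32.7%, CCAAT boxes (CCAAT) in 33.3% against 33.8%, ETS cores (CCGGAAGT) in 13.3% against 2.88% and the interferon regulatory element (GAAA, any 2 bases, then GAAA) in 6.67% against 2.98%. The ETS cores lay in 6 windows of 5 genes. The median GC content was 57.6% in the proteasome windows and 52.4% in all windows, and these shares were not adjusted for it. The Yy1 core AAGATGGCG was in none of the 45 windows and in 0.606% of all windows. The matches may overlap, as the GC box and the ETS core of Psme4 do, and a match says only that the letters are there.

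Most proteasome genes that moved were lower in the surgery mice. Of the 50 genes, 48 passed the filter on low counts. Among these 48, 12 were lower, 3 were higher and 33 did not pass the test, where 12.8% of all tested genes were lower and 13.1% higher. With offsets for transcript length and GC content, treated below, 2 were lower and none higher. The lower genes were Psma5, Psma6, Psma7, Psmb3, Psmb4, Psmb5, Psmb6, Psmc5, Psmd2, Psmd3, Psmd4 and Psmd8, and the higher genes were Psmc1, Psmc6 and Psme4. Both surgery mice lay below both control mice in 24 genes (50.0%, against 32.2% of all tested genes) and above both in 13 (27.1%, against 33.2%), and the groups overlapped in 11. The proteasome genes had a median log2 fold change of -0.13, and all tested genes one of 0.01. Psmb5 alone of the 48 genes passed the fold of 0.67 as well, a share near the 2.25% of all tested genes that did. No proteasome gene passed the fold of 1.5 upward, by edgeR, limma-voom or, among the 44 with an adjusted p, DESeq2, where 6.75% of all tested genes did in edgeR, and none did at an unadjusted p under 0.05 in edgeR. Psma8, the alpha subunit of the testis, had 4 and 2 counts in the controls and 5 in each surgery mouse, and Psmb11, the catalytic subunit of the thymus, had 7 and 3 counts in the controls against 6 and 2 after surgery. These 2 genes were not tested. In the coordinates of the table (mm10), Psmb5 lies at chr14:54614120-54617995 on the minus strand, not far from Psme1 at chr14:55578123-55581529 and Psme2 at chr14:55587441-55591113, while Psmb9 (chr17:34181988-34187764) and Psmb8 (chr17:34197721-34201454) are neighbors on chromosome 17.

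**Figure D1:**
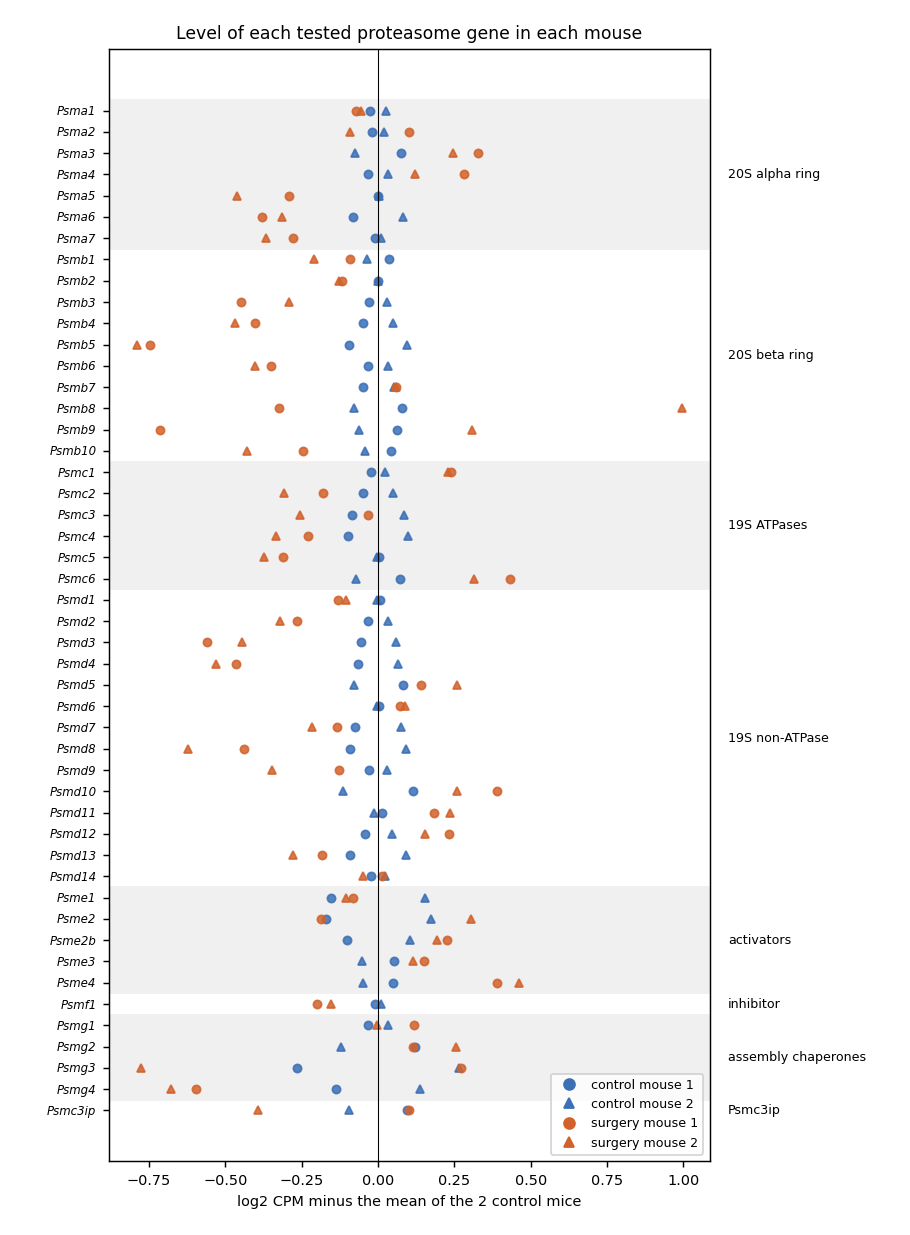
Level of each of the 48 tested proteasome genes in each mouse, as log2 CPM minus the mean of the 2 control mice (horizontal axis), with genes grouped by the part of the proteasome they belong to (vertical axis). Psmb5 lies farthest to the left in both surgery mice among the core genes with ample counts, Psme4 and Psmc6 lie to the right, and the 2 surgery mice are far apart for Psmb8 and Psmb9.

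The core genes that passed the test were all lower. Of the 17 tested genes, 7 were lower (41.2%, against 12.8% of all tested genes) and none was higher, with 1 core gene higher at an unadjusted p under 0.05 (all genes 19.9%) and none higher by limma-voom or among the 15 with an adjusted p in DESeq2. With offsets for transcript length and GC content, 2 core genes were lower (all genes 1.26%), and scaling by library totals alone called the core gene Psma3 higher. The median log2 fold change was -0.15 over all 17 genes and -0.24 over the 14 constitutive ones, which leave out Psmb8, Psmb9 and Psmb10. All core genes summed in CPM to 932 and 957 in the controls against 840 and 808 after surgery, a difference of -12.8%, with both surgery mice below both control mice. An exact permutation test over 2 against 2 mice cannot give a p below 0.333, and this sum gave 0.333.

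Without offsets, the 2 largest falls of the core were in the beta ring, in Psmb5 and Psmb4. With offsets for length and GC content the largest was that of Psma2 in the alpha ring (log2 fold change -0.64). Psmb5, the subunit with the chymotrypsin-like site, had 32.9 and 37.6 CPM in the control mice and 20.9 and 20.3 CPM in the surgery mice. Both surgery mice were far below the lower control mouse, and the spread within each group was small against this gap, with 35.3 ± 3.30 CPM in the control and 20.6 ± 0.438 CPM in the surgery mice (SD, n = 2). The log2 fold change of Psmb5 was -0.77 with a standard error of 0.11 (edgeR, adjusted p = 0.0058). With the offsets it was -0.56 and just missed the threshold (edgeR with offsets, adjusted p = 0.052). Psmb6, the subunit with the caspase-like site, had 76.9 and 80.5 CPM in the control mice and 61.8 and 59.5 CPM in the surgery mice. The groups did not overlap, and the log2 fold change of Psmb6 was -0.38 ± 0.07 (SE; edgeR, adjusted p = 0.012), or -0.20 and no longer past the test with offsets for length and GC content (edgeR with offsets, adjusted p = 0.19). Psmb7, the subunit with the trypsin-like site, had 45.2 and 48.5 CPM in the control mice and 48.7 CPM in each surgery mouse. Its log2 fold change of 0.06 ± 0.08 (SE) did not pass the test (edgeR, adjusted p = 0.64). The 3 constitutive catalytic subunits are built into the core in equal number, and their transcripts were set against each other in each mouse. The ratio of Psmb5 to Psmb7 in CPM was 0.729 and 0.775 in the controls against 0.430 and 0.417 after surgery, and that of Psmb6 to Psmb7 was 1.70 and 1.66 against 1.27 and 1.22. Both ratios were lower in both surgery mice, and with 2 mice per group this difference cannot pass an exact test.

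Psmb4 and Psmb3 are beta subunits with no protease site. Psmb4 had 112 and 120 CPM in the control mice and 87.6 and 83.6 CPM in the surgery mice, a log2 fold change of -0.44 (edgeR, adjusted p = 0.0078). Psmb3 had 59.8 and 62.4 CPM against 44.8 and 49.9 CPM, a log2 fold change of -0.37 (edgeR, adjusted p = 0.024). In both genes the surgery mice lay below the control mice. With offsets for length and GC content neither passed the test, at log2 fold changes of -0.36 for Psmb4 and -0.25 for Psmb3 (edgeR with offsets, adjusted p = 0.065 and 0.17). The other 2 constitutive beta genes, Psmb1 and Psmb2, had log2 fold changes of -0.15 and -0.12 and did not pass the test, although both surgery mice lay below both control mice. The 10 tested beta genes together summed to 508 and 524 CPM in the control mice and 427 and 418 CPM in the surgery mice, a difference of -18.1%.

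In the alpha ring, whose subunits form the gate of the core, 3 of 7 tested genes were lower (all genes 12.8%) and the median log2 fold change was -0.06, against -0.24 in the beta ring. With offsets for transcript length and GC content the order of the rings turned, with medians of -0.41 in the alpha ring and -0.15 in the beta ring. Psma5 had 42.0 and 42.1 CPM in the control mice and 34.3 and 30.5 CPM in the surgery mice, a log2 fold change of -0.38 (edgeR, adjusted p = 0.029). Psma6 had 62.1 and 69.5 CPM against 50.5 and 52.9 CPM, a log2 fold change of -0.35 (edgeR, adjusted p = 0.028). Psma7 had 90.3 and 91.4 CPM against 74.9 and 70.4 CPM, a log2 fold change of -0.32 (edgeR, adjusted p = 0.018). The groups did not overlap in any of the 3. The other alpha genes did not pass the test. Psma3 came closest, with 49.6 and 44.6 CPM in the control mice and 59.0 and 55.8 CPM in the surgery mice, a log2 fold change of 0.29 (edgeR, adjusted p = 0.053). With libraries scaled by their totals alone Psma3 was higher (log2 fold change 0.33; edgeR, adjusted p = 0.031), and with the offsets its log2 fold change was -0.25. Psma1, Psma2 and Psma4 had log2 fold changes of -0.06, 0.01 and 0.20. Genes of this ring thus lay on both sides of 0, whereas with the offsets all 7 were negative, from -0.64 for Psma2 to -0.09 for Psma4. The sum of the 7 tested alpha genes and Psma8 differed by -6.34%, from 423 and 433 CPM to 412 and 390 CPM.

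The immunoproteasome genes showed no difference that passed the test. Psmb8, which takes the place of Psmb5, had 1.16 and 1.04 CPM in the control mice and 0.878 and 2.19 CPM in the surgery mice, from 14 to 37 counts per mouse. Psmb9, which takes the place of Psmb6, had 2.15 and 1.97 CPM against 1.25 and 2.55 CPM, from 20 to 43 counts per mouse. In both genes surgery mouse 1 was the lowest and surgery mouse 2 the highest of the 4, so the surgery mice enclosed the control mice. The log2 fold changes were 0.49 ± 0.49 for Psmb8 and -0.10 ± 0.39 for Psmb9 (SE; edgeR, adjusted p = 0.50 and 0.87), so no difference was detectable at these counts. Psmb10, which takes the place of Psmb7, was far more abundant, with 24.96 and 23.5 CPM in the control mice and 20.4 and 18.0 CPM in the surgery mice. Both surgery mice were lower, with a log2 fold change of -0.33 ± 0.11 that did not pass the test (SE; edgeR, adjusted p = 0.075).

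The log2 ratio of each immunoproteasome gene to its constitutive counterpart was compared in each mouse. The ratio of Psmb8 to Psmb5 was -4.69 and -5.03 in the controls against -4.40 and -3.15 after surgery, a difference of 1.08 that joined a lower Psmb5 in both surgery mice with a high Psmb8 in surgery mouse 2 (exact permutation test, two-sided, p = 0.333, the smallest possible). The ratio of Psmb9 to Psmb6 was -5.09 and -5.27 against -5.50 and -4.48, and the groups overlapped (exact permutation p = 1). The ratio of Psmb10 to Psmb7 was -0.85 and -1.04 against -1.25 and -1.43, lower in both surgery mice (exact permutation p = 0.333). Without offsets, the 3 ratios therefore did not move in 1 direction. No offsets for length and GC content entered these ratios. The log2 fold changes with offsets were 0.70 for Psmb8 and -0.56 for Psmb5, and 0.08 for Psmb9 and -0.20 for Psmb6. They were -0.11 for Psmb10 and -0.03 for Psmb7, so that pair then differed little.

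**Figure D2:**
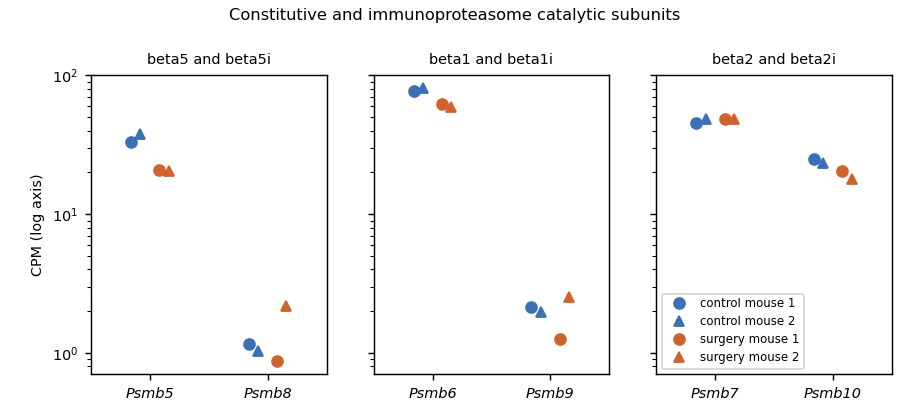
CPM on a log axis of each constitutive catalytic gene (left in each panel) and of the immunoproteasome gene that replaces it (right), with 1 point per mouse. Psmb5 and Psmb6 are lower in both surgery mice, Psmb7 lies between 45.2 and 48.7 CPM in all 4 mice, and Psmb8 and Psmb9 are near 1 to 3 CPM with surgery mouse 2 above surgery mouse 1.

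Genes that respond to interferon or process antigen were read beside the immunoproteasome genes. Of 13 tested genes of this list, none was lower or higher by edgeR (all genes 12.8% and 13.1%) or limma-voom, 2 were higher and none lower at an unadjusted p under 0.05 in edgeR (all genes 19.9% and 19.4%), and 1 of the 12 with an adjusted p was higher by DESeq2. Their CPM summed to 300 and 306 in the controls against 281 and 400 after surgery, so surgery mouse 2 was the highest, as it was for Psmb8 and Psmb9. B2m, the light chain of class I molecules, had 67.5 and 65.5 CPM in the control mice and 77.6 and 108 CPM in the surgery mice, a log2 fold change of 0.48 (edgeR, adjusted p = 0.057) that turned to -0.05 with offsets for length and GC content.

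The 19S cap had calls in both directions. Of its 20 tested genes, 5 were lower and 2 higher (12.8% and 13.1% of all tested genes), the median log2 fold change was -0.16, and the cap genes summed to 1694 and 1787 CPM in the control mice and 1578 and 1516 CPM in the surgery mice (-11.1%). The opposite calls met within the ring of 6 ATPases, which unfolds the substrate. Psmc5 had 140 and 139 CPM in the control mice and 113 and 108 CPM in the surgery mice, a log2 fold change of -0.34 ± 0.06 (SE; edgeR, adjusted p = 0.011). Psmc6 had 51.3 and 46.4 CPM against 65.8 and 60.6 CPM, a log2 fold change of 0.37 ± 0.09 (SE; edgeR, adjusted p = 0.025). Psmc1 had 98.7 and 102 CPM against 118 and 117 CPM, a log2 fold change of 0.23 ± 0.06 (SE; edgeR, adjusted p = 0.036). The groups did not overlap in any of these 3. Psmc2, Psmc3 and Psmc4 had log2 fold changes of -0.24, -0.14 and -0.28 and did not pass the test. The direction of Psmc6 depended on the correction for GC content described below.

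Among the 14 Psmd genes, 4 were lower and none was higher by edgeR, DESeq2 or limma-voom, with 2 higher at an unadjusted p under 0.05 in edgeR (12.8% of all tested genes lower, 13.1% higher, and 19.9% higher at that unadjusted p). Scaling by library totals alone called Psmd11 higher (log2 fold change 0.26; edgeR, adjusted p = 0.041). Psmd2, a large scaffold of the base and the proteasome gene with the highest CPM, though not per length, had 195 and 205 CPM in the control mice and 166 and 160 CPM in the surgery mice (log2 fold change -0.29; edgeR, adjusted p = 0.017). Psmd4, the ubiquitin receptor of the base, had 117 and 129 CPM against 89.2 and 85.1 CPM (log2 fold change -0.50; edgeR, adjusted p = 0.0066). Psmd1, another scaffold of the base, had a log2 fold change of -0.12 and did not pass the test. In the lid, which holds the enzyme that removes ubiquitin chains, 2 of 8 genes were lower. Psmd3 had 149 and 162 CPM in the control mice and 106 and 114 CPM in the surgery mice (log2 fold change -0.50; edgeR, adjusted p = 0.0066). Psmd8 had 95.4 and 108 CPM against 74.9 and 66.0 CPM, which was the largest fall of the cap without offsets (log2 fold change -0.53; edgeR, adjusted p = 0.011). In each of these 4 genes both surgery mice lay below both control mice. With offsets for length and GC content none of the 4 passed the test, and the log2 fold changes were -0.25 for Psmd2, -0.33 for Psmd4, -0.23 for Psmd3 and -0.43 for Psmd8 (edgeR with offsets, adjusted p = 0.11, 0.078, 0.14 and 0.081). The largest fall of the cap was then that of Psmc6 (log2 fold change -0.50). The gene of the deubiquitinase itself, Psmd14, had a log2 fold change of -0.02, and the other lid genes Psmd6, Psmd7, Psmd11, Psmd12 and Psmd13 had log2 fold changes of 0.08, -0.18, 0.21, 0.19 and -0.23. Psmd5, Psmd9 and Psmd10 encode chaperones that assemble the base and are absent from the finished cap, and their log2 fold changes were 0.20, -0.23 and 0.32 with none past the test.

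**Figure D3:**
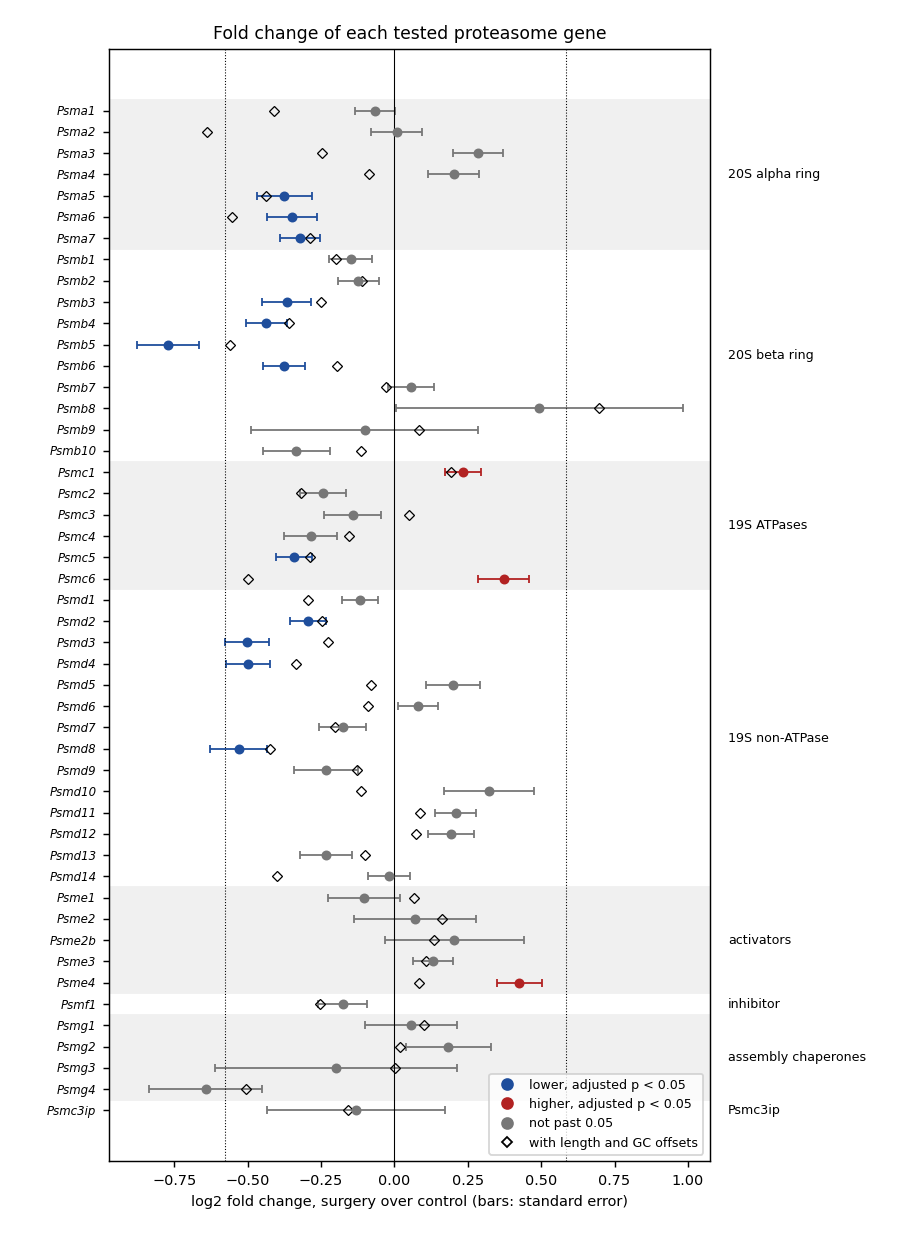
Log2 fold change, surgery over control, of each tested proteasome gene (filled points, with bars for the standard error from edgeR) and the same value with offsets for transcript length and GC content (open diamonds). Dotted lines mark folds of 0.67 and 1.5. The 12 lower genes stay left of 0 with the offsets, and the diamonds of Psmc6 and Psma2 lie near -0.50 and -0.64.

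Of the 5 activator genes, 1 was higher and none was lower, where 13.1% of all tested genes were higher and 12.8% lower. Psme4 encodes PA200, a single-chain cap found mainly in the nucleus, and had 52.2 and 48.8 CPM in the control mice and 66.2 and 69.6 CPM in the surgery mice. Both surgery mice were higher, with 50.5 ± 2.44 CPM in the control and 67.9 ± 2.41 CPM in the surgery mice (SD, n = 2) and a log2 fold change of 0.43 ± 0.08 (SE; edgeR, adjusted p = 0.011). Psme3, which encodes the nuclear activator PA28 gamma, had 105 and 97.9 CPM against 113 and 110 CPM and did not pass the test (log2 fold change 0.13; edgeR, adjusted p = 0.21). Psme1 and Psme2 encode the alpha and beta chains of the PA28 cap that interferon induces, and both groups overlapped in them. Psme1 had 26.8 and 33.1 CPM in the control mice and 28.1 and 27.7 CPM in the surgery mice, and Psme2 had 11.2 and 14.2 CPM against 11.1 and 15.6 CPM. Their log2 fold changes were -0.10 and 0.07. Psme2b, a near copy of Psme2, had 2.84 and 3.28 CPM against 3.57 and 3.50 CPM (log2 fold change 0.20), and since 60.2% of its 75 nt windows also occur in Psme2 transcripts, its reads cannot be fully told apart from those of Psme2. None of the 5 activator genes was lower by edgeR, DESeq2 or limma-voom, and none was lower at an unadjusted p under 0.05 in edgeR. The activators summed to 198 and 197 CPM in the control mice and 222 and 226 CPM in the surgery mice, a difference of 13.2% that came mostly from Psme4 and Psme3 (exact permutation p = 0.333, the smallest possible). The ratio of Psme4 to Psme3 in CPM was 0.496 and 0.499 in the controls against 0.587 and 0.633 after surgery. With offsets for length and GC content Psme4 no longer passed the test, and the log2 fold changes were 0.08 for Psme4 and 0.11 for Psme3 (edgeR with offsets, adjusted p = 0.58 and 0.49).

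The inhibitor Psmf1 had 36.1 and 36.6 CPM in the control mice and 31.7 and 32.6 CPM in the surgery mice. Both surgery mice were lower, and the log2 fold change of -0.18 did not pass the test (edgeR, adjusted p = 0.17). Among the assembly chaperones, which build the alpha ring, Psmg4 had 7.31 and 8.86 CPM in the control mice and 5.33 and 5.04 CPM in the surgery mice. Without offsets, this negative log2 fold change of -0.64 ± 0.19 (SE) was exceeded by that of Psmb5 alone among the 48 genes. It fell just short of the threshold (edgeR, adjusted p = 0.053). With offsets for length and GC content Psmg4 was at -0.51 and did not pass the test (edgeR with offsets, adjusted p = 0.19). Psma2, Psmb5 and Psma6 then had larger falls. Psmg3, the partner of Psmg4, had 1.86 and 2.68 CPM against 2.70 and 1.30 CPM, and the groups overlapped (log2 fold change -0.20). Psmg1 and Psmg2, which work as another pair, had 8.36 and 8.75 CPM against 9.28 and 8.53 CPM and 13.9 and 11.8 CPM against 13.9 and 15.3 CPM, with log2 fold changes of 0.06 and 0.18. None of the 4 chaperone genes passed the test in edgeR as described or limma-voom, nor did the 3 with an adjusted p in DESeq2, although Psmg4 did with a filter at 1 CPM in 2 libraries (log2 fold change -0.65; edgeR, adjusted p = 0.048), and it was the single one at an unadjusted p under 0.05 in edgeR. Psmc3ip had a log2 fold change of -0.13 and did not pass the test.

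Levels of genes were compared with each other per length, as CPM per kb of the longest coding transcript. Averaged over the 4 mice, the 14 constitutive core genes ran from 18.4 CPM per kb for Psma3 to 87.3 CPM per kb for Psmb6, a range of 4.75-fold with a median of 50.4 CPM per kb, although their proteins enter the core in equal number. Among the catalytic genes Psmb5 was the lowest constitutive one at 31.1 CPM per kb and Psmb7 stood at 41.2 CPM per kb. The immunoproteasome genes were at 0.809 CPM per kb for Psmb8, 1.46 CPM per kb for Psmb9 and 16.6 CPM per kb for Psmb10. The 17 subunits of the finished cap ran from 20.97 CPM per kb for Psmd11 to 94.9 CPM per kb for Psmc5, a range like that of the core. The base chaperones were lower, from 7.66 CPM per kb for Psmd10 to 10.6 CPM per kb for Psmd5. Psme3 had the highest level of the activators at 40.0 CPM per kb, followed by Psme1 at 26.0, Psme2 at 13.5, Psme4 at 9.12 and Psme2b at 3.94 CPM per kb. The length of the longest transcript need not be that of the transcript used in the hippocampus, so these levels are approximate.

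**Figure D4:**
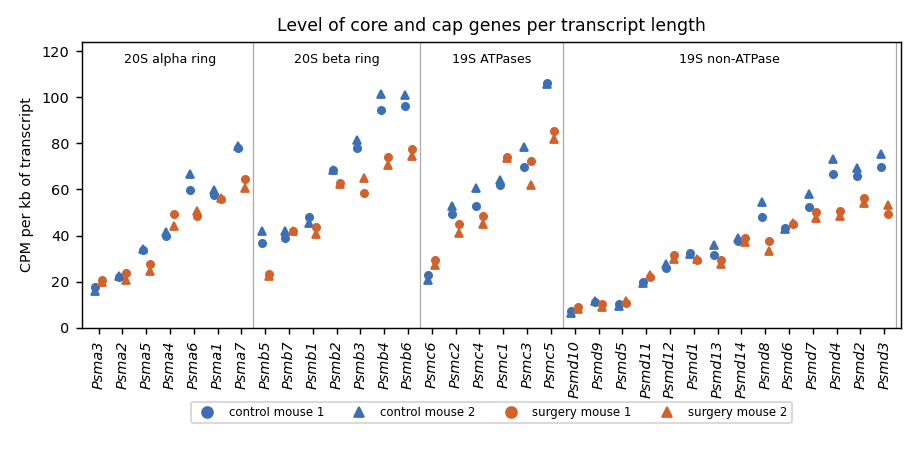
CPM per kb of the longest coding transcript (vertical axis) of each tested core and cap gene outside the immunoproteasome, ordered within each class by its mean, with 1 point per mouse. The control mice lie above the surgery mice both in genes of high level, such as Psmb6 and Psmc5, and in Psmb5, the lowest of the beta genes drawn, and below them in Psmc1, Psma3 and Psmc6.

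The GC content of the transcripts moved with the fold changes. Over all 17120 genes with a GC value, the medians of the log2 fold change by eighths of GC content fell from 0.60 at the lowest GC to -0.35 at the highest, with a Spearman rho of -0.65 across genes. Over the 48 proteasome genes rho was -0.60, as a description across genes that share libraries and are not independent. The median GC content was 52.4% for the 12 lower genes, 43.9% for the 3 higher genes and 49.3% for the 33 that did not pass the test, and the range was 37.0% for Psmc6 to 58.3% for Psmd3. Psmb5 had a GC content of 56.6% and Psme4 one of 43.9%. When length and GC content entered the model as offsets, 2 of the 48 proteasome genes were lower and none higher, against 1.26% and 0.567% of all genes. The lower genes were then Psma6 (log2 fold change -0.55; edgeR with offsets, adjusted p = 0.047) and Psma2 (log2 fold change -0.64; edgeR with offsets, adjusted p = 0.0496), of which Psma2 had a log2 fold change of 0.01 without offsets. With the offsets and a term for the replicate number together, 16 proteasome genes were lower and 0 higher, against 9.70% and 4.35% of all tested genes in edgeR.

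**Figure D5:**
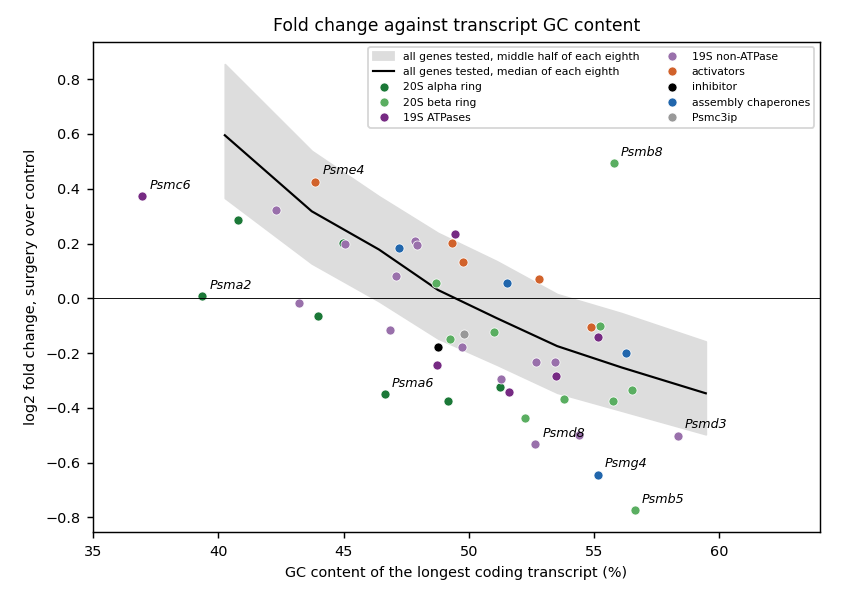
Log2 fold change, surgery over control, against the GC content of the longest coding transcript in percent, for the 48 tested proteasome genes (points, colored by class). The line and band show the median and the middle range, from the 25th to the 75th percentile, of all genes tested in each eighth of GC content. Psmb5, Psmb4, Psmd8, Psma5, Psma6 and Psma2 are among the genes below the band, and Psmb8 lies above it.

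With these offsets all 12 lower genes still had negative log2 fold changes, from -0.56 to -0.20, and 34 of the 48 genes were negative. Medians of the log2 fold change with offsets were -0.25 in the core, -0.18 in the cap and 0.11 in the activators. Psmb5 had a log2 fold change of -0.56 with offsets, just above the threshold (edgeR with offsets, adjusted p = 0.052). Psmc6 turned from 0.37 to -0.50, Psme4 fell from 0.43 to 0.08 and Psmc1 from 0.23 to 0.19 on the log2 scale. The ring of ATPases thus had its opposite calls without the offsets and none with them. What lies behind the GC trend was not tested.

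Sequence shared with other genes and overlapping neighbors could touch a few of these values, since the use of strand in the counting is not given in the sources used here. Of the 75 nt windows of Psmb5, 36.8% also occur in the transcripts of 2 other genes, chiefly Gm3375 at 32.9%, and the microRNA gene Mir686 overlaps Psmb5 on the same strand. For Psma5 the share was 35.2%, for Psme2 22.9%, for Psma3 14.3%, for Psmb3 10.3% and for Psmd2 9.77%. Exons on the opposite strand overlap Psma5, Psmd3 and Psmb9 among others, where the neighbor of Psmb9 is Tap1, and reads of such pairs cannot be told apart without strand. Counts of these genes are uncertain to that extent, and the effect on the fold changes was not tested.

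Each mouse was left out in turn, which left 1 mouse in its group, assumed to vary like those of the other group, and lowered the calls over all genes in each of the 4 fits. A call lost in such a fit is therefore no sign that it rested on 1 mouse. Psmb4, Psmb5, Psmc5, Psmd3, Psmd4 and Psmd8 were lower in all 4 fits, and the other 9 calls were lost in at least 1 of them. Without control mouse 2, 6 genes were lower and none higher (edgeR; all genes 6.75% and 6.72%), with Psmb3, Psmb6, Psma5, Psma6, Psma7, Psmd2, Psmc1, Psmc6 and Psme4 no longer called. Psmc1 was not called in any of these 4 fits. Every one of the 15 genes kept its sign when a mouse was left out, and none of their log2 fold changes moved by more than 1.305 times.

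Markers of cell types gave the following values beside these results, and their calls by edgeR stand against 12.8% lower and 13.1% higher among all tested genes. These calls are without offsets for length and GC content. With the offsets, Map2 alone of all these markers was called (log2 fold change 0.40; edgeR with offsets, adjusted p = 0.046). The log2 fold changes were then 0.24 for Aqp4, 0.09 for Gja1, 0.13 for P2ry12, -0.35 for Fibcd1 and -0.44 for Wfs1. The 5 markers of choroid plexus had no call by edgeR, DESeq2 or limma-voom and none at an unadjusted p under 0.05, and without control mouse 1, which stood apart in them, the lower calls of Psmb5, Psmb4, Psmd3, Psmd4, Psmd8, Psmc5, Psmb6, Psmb3, Psma6, Psma7 and Psmd2 and the higher calls of Psmc6 and Psme4 were kept, while those of Psma5 and Psmc1 were lost. Summed markers of CA1 and dentate gyrus neurons were 580 and 566 CPM in the control mice and 476 and 425 CPM in the surgery mice, with Wfs1 and Fibcd1 lower among 4. The other 2 did not pass the test, with log2 fold changes of 0.43 for Prox1, which marks the dentate gyrus, and 0.07 for Dsp. The 5 neuron markers summed to 4727 and 4613 CPM against 4991 and 4815 CPM, with Map2 higher and Tubb3 lower. Astrocyte markers summed to 3073 and 2836 CPM against 3520 and 3359 CPM, with 3 of 5 higher and 1 lower, and microglia markers to 256 and 248 CPM against 246 and 254 CPM, with P2ry12 higher among 6. Oligodendrocyte markers summed to 5869 and 5081 CPM against 5784 and 3733 CPM with none of 5 called, endothelial markers to 159 and 160 CPM against 169 and 218 CPM with Flt1 higher among 5, and neutrophil markers to 9.52 and 14.8 CPM against 2.07 and 9.54 CPM with Ltf lower among 4. None of the 3 tested red blood cell markers was called by edgeR or limma-voom, or had an unadjusted p under 0.05 in edgeR, and neither of the 2 with an adjusted p in DESeq2 was called. T cell markers were at 13 counts or fewer per gene and mouse and were not tested. Cd3d was at 0 in both surgery mice, and Cd3e had 1 count in each control and 5 in each surgery mouse. These markers summed to 0.581 and 1.15 CPM in the control mice against 0.878 and 1.42 CPM in the surgery mice. The share of counts on transcripts of the mitochondrial genome was 2.82% and 2.52% in the controls against 4.44% and 4.48% after surgery. The part of any of these in the proteasome values was not tested.

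The genes around the proteasome moved in both directions. Of 46 tested genes for ubiquitin, its activation and transfer, the partners of the cap, assembly, the segregase Vcp and the transcription of proteasome genes, 9 were lower, 12 higher and 25 did not pass the test, where 12.8% of all tested genes were lower and 13.1% higher, and the median log2 fold change was 0.01. With libraries scaled by their totals alone the split was 6 lower and 16 higher, where 10.6% of all tested genes were lower and 15.5% higher. Ubb, which encodes several copies of ubiquitin in tandem, had 993 and 1044 CPM in the control mice and 730 and 649 CPM in the surgery mice. Both surgery mice were lower, with a log2 fold change of -0.56 (edgeR, adjusted p = 0.0054). The ubiquitin receptor of the cap Adrm1 had 81.3 and 93.4 CPM against 62.4 and 62.5 CPM, a log2 fold change of -0.48 (edgeR, adjusted p = 0.010). With offsets for length and GC content neither passed the test, at log2 fold changes of -0.41 for Ubb and -0.17 for Adrm1.

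The rises were mostly among the 15 genes that activate or transfer ubiquitin, of which 8 were higher and 2 lower (all genes 13.1% and 12.8%), and none was either with offsets for length and GC content. The ubiquitin ligase Ube3a had the largest rise of the list, from 43.2 and 38.1 CPM to 84.5 and 90.7 CPM (log2 fold change 1.11; edgeR, adjusted p = 0.0042). The activating enzyme Uba6 had 13.8 and 10.7 CPM against 20.4 and 21.2 CPM (log2 fold change 0.77; edgeR, adjusted p = 0.014), and the conjugating enzyme Ube2k had 73.9 and 65.0 CPM against 105 and 111 CPM (log2 fold change 0.63; edgeR, adjusted p = 0.0055). In all of these the groups did not overlap. With offsets for length and GC content the log2 fold changes were 0.24 for Ube3a, -0.07 for Uba6 and 0.08 for Ube2k, and 4 genes of the list were lower, among them Sem1 (-1.29), Usp14 (-0.50) and Rad23b (-0.37), with none higher.

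Pomp, the maturation factor that joins the core's beta ring, had 62.1 and 61.2 CPM in the control mice and 49.8 and 47.5 CPM in the surgery mice, a log2 fold change of -0.34 (edgeR, adjusted p = 0.019). Nfe2l1, the factor known for raising proteasome genes when proteasome activity is short, had 357 and 384 CPM against 306 and 320 CPM, a log2 fold change of -0.24 (edgeR, adjusted p = 0.035). Its relative Nfe2l2 had 14.2 and 14.4 CPM against 19.7 and 23.0 CPM, a log2 fold change of 0.58 (edgeR, adjusted p = 0.020). Pomp and Nfe2l1 thus lay on the side of the core genes and Nfe2l2 on the other, with no overlap of the groups in any of the 3. With the offsets none of the 3 passed the test, and the log2 fold changes were -0.40 for Pomp, -0.08 for Nfe2l1 and 0.40 for Nfe2l2.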

How the data were processed

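Hippocampal mRNA was captured on oligo(dT) beads and read as 150 nt pairs. From these reads, mapped to mm10 by HISAT after filtering, the authors deposited an unnormalized read count for each gene and mouse. The submitters' processing notes name HISAT2 2.1.0, Bowtie2 2.2.3, TopHat2 and HTSeq 0.6.0. The authors' own columns of scaled mean, fold change and p-value were not used.

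The counts were fitted with edgeR 4.0.16 under R 4.3.3 (filterByExpr at a minimum count of 10, TMM, glmQLFit and glmQLFTest with condition as the only term, Benjamini-Hochberg adjustment). The standard error of a log2 fold change is its size divided by the square root of F. With 2 mice a group, p-values rest on a spread estimated jointly over genes. DESeq2 1.42.0 and limma 3.58.1 (voom) were alternatives, as were other scalings, filters, a replicate block, leaving out each mouse and offsets from mgcv 1.9.3 smooth trends of basis size 8. Lengths and GC contents came from GENCODE M21, which holds 29238 of the identifiers. Library totals of 15763432 to 18573386 counts set the precision of low genes, and the procedures were tested on simulated data. When a GC trend was added to these, the edgeR test without offsets made many false calls in unchanged genes and the test with offsets few. The added trend was a plain shift with GC content, which the offsets are built to remove, so this outcome was set by design. What lies behind the GC trend of the real data was not tested by it. Replicate pairs differed by more than sampling noise.

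Genes were named by role, by the largest and smallest fold change of each class and by passing the test. The members, lists and tests were chosen with earlier results of these data known. Psma3, Psmd11, Nfe2l2, B2m and single marker or pathway genes under other settings were named after their values were seen. Of the pathway list, values are given for named genes only, and 1 gene is not reported here.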

Additional observations from a re-analysis of the deposited data

How the results depend on the processing

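Precision was limited by 2 mice per group and, for Psmb8, Psmb9 and Psmg3, by depth. Other scalings, limma-voom and the replicate block kept all 15 calls of proteasome genes, DESeq2 kept 14, no filter on low counts 10, and length and GC offsets 1, or 10 together with the replicate block. Nothing in the labels ties equal replicate numbers to a shared batch or animal, and whether they pair the mice is not known (correlation of same-numbered deviations 0.224 over all genes, -0.314 over proteasome genes, with 2 pairs). The replicate block raised the calls over all genes from 2199 lower and 2250 higher to 2626 and 2655, also called Psma3 higher and Psmg4 lower, and put 2 proteasome genes, Psmb5 and Psmg4, past the lower fold. Causes were not tested.

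When a mouse was left out, the 12 lower genes became 6 to 12, the 3 higher genes 0 to 2, the single gene past the lower fold 1 to 2, the pathway list's 9 lower genes 4 to 8 and its 12 higher genes 6 to 11. The interferon list, with no call, then had 0 to 1 lower and 0 to 3 higher genes. The median log2 fold change ran from -0.27 to -0.13 for the core, -0.25 to -0.12 for the cap, 0.10 to 0.25 for the activators and -0.36 to 0.12 for the chaperones, and the log2 ratio of Psmb9 to Psmb6 from -0.32 to 0.70. Log2 fold changes that changed sign ran from -0.11 to 0.11 for Psma2, -0.32 to 0.98 for Psmb8, -0.71 to 0.29 for Psmb9, -0.41 to 0.11 for Psmc3ip, -0.066 to 0.018 for Psmd14, -0.25 to 0.055 for Psme1, -0.19 to 0.28 for Psme2, -0.020 to 0.12 for Psmg1 and -0.82 to 0.25 for Psmg3.

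With library totals only, 5 genes were higher, 1 interferon gene was higher, the medians were -0.080 for all proteasome genes and -0.10 for the core, the log2 ratios of the sums were -0.10 for all, -0.15 for the core and 0.23 for the activators, and Psmd14 was at 0.028. DESeq2 and the replicate block each called 1 interferon gene higher. No filter left 1 higher gene, and 1 CPM in 2 libraries put 2 genes, Psmb5 and Psmg4, past the lower fold. DESeq2, which gave adjusted p-values to 15 core genes, had medians of -0.34 for the core and 0.037 for the chaperones. Psma2 was at -0.0012 with RLE factors, -0.0019 with upper quartile factors, -0.0032 with no filter, -0.00076 at 1 CPM and -0.013 in DESeq2.

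With length and GC offsets, 2 genes were lower and 0 higher, and the pathway list had 4 lower and 0 higher. Together with the replicate block, 16 were lower, Psmc6 and Psma2 among them, and 0 higher (all genes 9.70% and 4.35%), and the pathway list had 12 lower and 1 higher. Values with the offsets, then with the block as well, were -0.25 and -0.25 for the core median and 0.012 and 0.0065 for the chaperone median. Log2 fold changes that changed sign were, in the same order, -0.64 and -0.65 for Psma2, -0.25 and -0.25 for Psma3, -0.087 and -0.089 for Psma4, -0.030 and -0.030 for Psmb7, 0.082 and 0.071 for Psmb9, 0.048 and 0.044 for Psmc3, -0.50 and -0.50 for Psmc6, -0.079 and -0.078 for Psmd5, -0.089 and -0.089 for Psmd6, -0.11 and -0.11 for Psmd10, and 0.066 and 0.071 for Psme1. Psmg3 was at 0.0031 with the offsets alone.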
